A study of Mus musculus with 33 samples.

Results

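The genes described here form a module of 42 interferon-stimulated genes that lie outside the large IFIT, OAS, MX, GBP and IRF families, followed over time in whole kidney of female BWF1 mice, the F1 hybrid of NZB and NZW that develops lupus nephritis. A gene was represented by probe sets that carry its symbol and no other, and where several did, by the one with the highest mean over all arrays. By this rule 39 of the 42 genes were measured, out of 17097 named genes on the array, and Ifi44, Bst2 and Ogfr are not analysed here. The samples were 33 kidneys, each on 1 Affymetrix HT MG-430 PM array. Kidneys came from 3 untreated mice and from mice given an adenovirus that makes mice produce IFNα (Adv-IFNα), with 5 kidneys at each of weeks 1, 2, 3, 5, 7 and 9 after it. All mice carried the same F1 genotype, and the treated mice all received the virus intravenously. There was no group given an empty adenovirus, so that the vector and its IFNα cannot be told apart, and the labels give neither the age of the mice nor the week at which the untreated kidneys were taken. Passing time and age also cannot be told apart between the weeks.

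Type I interferons bind a receptor formed by IFNAR1 and IFNAR2, whose kinases JAK1 and TYK2 lead to the assembly of ISGF3, a factor that holds STAT2 and IRF9 and binds the interferon-stimulated response element (ISRE) in promoters of target genes. IFN-γ acts mainly through another element, GAS. The products of the target genes block viral replication, tag proteins with ISG15, present antigen or dampen the signal, and their raised RNA in blood and tissue is known as the interferon signature of lupus.

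The members' promoters were searched for both elements. RefSeq windows of the GRCm38.p6 assembly, from 250 bases before to 50 bases after a start, were given for 32 of the 39 members. The windows of Ifi27l2a, Parp9, Parp10, Parp14, Rtp4, Tor3a and Ly6e were not analysed here. An ISRE core, spelled as GAAA, any 2 bases and GAAA on either strand, was found in 7 of the 32 members (21.9%), against 3.99% of all 27025 genes with a window. These members were Ddx60, Lgals9, Psme1, Rsad2, Tdrd7, Trim21 and Trim30a. A GAS match, spelled as TTC, any 3 bases and GAA on either strand, was found in 3 of the 32 (9.38%; Adar, Ifi35 and Isg20), against 9.55% of all genes. The GAA of a GAS match can lie inside an ISRE core, and a match is a stretch of letters, not a bound site. Stretches with an ISRE core are shown for 5 members whose courses are described further on, on the strand of the gene, with each match in capitals.
Rsad2, chr12:26456548-26456587, minus strand: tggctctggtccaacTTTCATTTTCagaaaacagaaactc
Ddx60, chr8:61928019-61928086, plus strand: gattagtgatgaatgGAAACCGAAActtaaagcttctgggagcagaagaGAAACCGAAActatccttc
Tdrd7, chr4:45972091-45972130, plus strand: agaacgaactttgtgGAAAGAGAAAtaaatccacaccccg
Trim30a, chr7:104465205-104465244, minus strand: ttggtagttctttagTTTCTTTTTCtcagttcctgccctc
Lgals9, chr11:78984955-78984994, minus strand: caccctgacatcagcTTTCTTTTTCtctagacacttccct

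In Ddx60 the same match, GAAACCGAAA, was present 2 times within 68 bases before the start. The windows of Lgals9, Trim21 and Trim30a also held 2 matches each, some of them outside the stretches shown. In Rsad2, Trim30a and Lgals9 the match shown ran on the opposite strand, so that it reads as TTTC, 2 bases and TTTC. The median week 1 change against untreated was 1.7 on the log2 scale over the 7 members with the core (1.07 to 2.52) and 1.06 over the 25 without (-0.23 to 3.86), so that the ranges overlapped and the largest rises were among genes without a match in the window.

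Values are log2 intensities from RMA, so that a difference of 1 is 2-fold, and levels are not compared between genes. Changes are given with their standard error (SE) and with a p-value adjusted over all 45037 non-control probe sets by limma, and a gene was called higher or lower at an adjusted p below 0.05. The 95% intervals are not adjusted for the number of genes. The same 3 untreated kidneys served every comparison with a week, so those comparisons are not independent of each other. The arrays had medians of 3.97 to 4.09 and correlated at 0.9654 to 0.9938 with each other. Kidney markers such as Umod and Slc12a1, of the thick ascending limb, and Cubn, of the proximal tubule, were bright in all groups. The 3' to 5' ratio of the beta-actin control probe sets, a sign of RNA integrity, was higher in treated kidneys (1.95 ± 0.11 on the log2 scale, SD, n = 30) than in untreated ones (1.57 ± 0.16, n = 3; exact two-sided permutation test, p = 0.000733). Its part in the differences from untreated was not tested beyond a fit with the ratio as a covariate, whose counts are given beside those without it.

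Most of the module rose within the first week and was still raised at week 9. At week 1, 34 of 39 members were called higher than untreated (background 1.4% of all named genes), at week 2 28 (1.27%), at week 3 31 (1.51%) and at week 5 26 (2.75%). At week 7 the count was 35 (13.2% of all genes) and at week 9 it was 33 (9.05%). One member, Ifi44l, was called lower at week 9, where 7.57% of all genes were. Once the 3' to 5' ratio entered the fit as a covariate, the counts of higher members were 29, 21, 24, 19, 34 and 21 at weeks 1, 2, 3, 5, 7 and 9. The members' median change from untreated was 1.51 at week 1, 1.11 at week 2, 1.36 at week 3, 0.94 at week 5, 1.53 at week 7 and 1.16 at week 9 on the log2 scale, while the median over all genes stayed between -0.03 and 0.03. Every treated kidney lay above every untreated kidney for 34 members at week 1 (background 4.86%), 32 at week 2 (5.15%), 34 at week 3 (6.22%), 26 at week 5 (6.43%), 33 at week 7 (11.8%) and 27 at week 9 (7.97%).

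Of the 39 members, 25 were called higher at each of the 6 weeks. The share of all named genes called at every week was not counted. It can be no larger than the smallest share of a single week, 1.27% at week 2. With the beta-actin covariate 18 of the 25 members were still called at each week. Adar, Cmpk2, Ifi35, Nmi, Pml, Samd9l and Trim25 lost a call at 1 week or more. Without untreated replicate 1 the count was 20. Without replicate 2 it was 23, of which 22 were among the 25, and without replicate 3 it was 18, of which 17 were. Calls of 14 of the 25 were lost at no week in any alternative, namely Ifi27l2a, Isg20, Lgals3bp, Lgals9, Ly6e, Parp9, Parp12, Parp14, Rsad2, Rtp4, Sp100, Trim21, Trim30a and Xaf1. Taken alone, a dimmer probe set of Parp14, Rsad2, Rtp4, Sp100, Trim21, Trim30a and Xaf1 was not called at every week. The 14 members not called at every week were Ifi44l, Daxx, Pnpt1 and Mov10, which were called higher at no week, Epsti1 at 2 weeks, Herc6, Trafd1, Psme2 and Ddx60 at 3, Ube2l6 and Psme1 at 4, and Uba7, Znfx1 and Tdrd7 at 5. In the order of group means the courses had a common shape. The mean was lower at week 2 than at week 1 in 38 members and lower at week 5 than at week 3 in 36, was higher at week 7 than at week 5 in 39, and was lower at week 9 than at week 7 in 38. The highest mean was at week 7 in 19 members and at week 1 in 16, and the lowest treated mean at week 5 in 22 and at week 9 in 11. These are orders of group means, and of the steps between neighbouring weeks only that from week 7 to week 9 was tested. How many of all genes took each step was not counted. From week 7 to week 9 the median difference was -0.35 over the members and -0.07 over all genes.

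**Figure D1:**
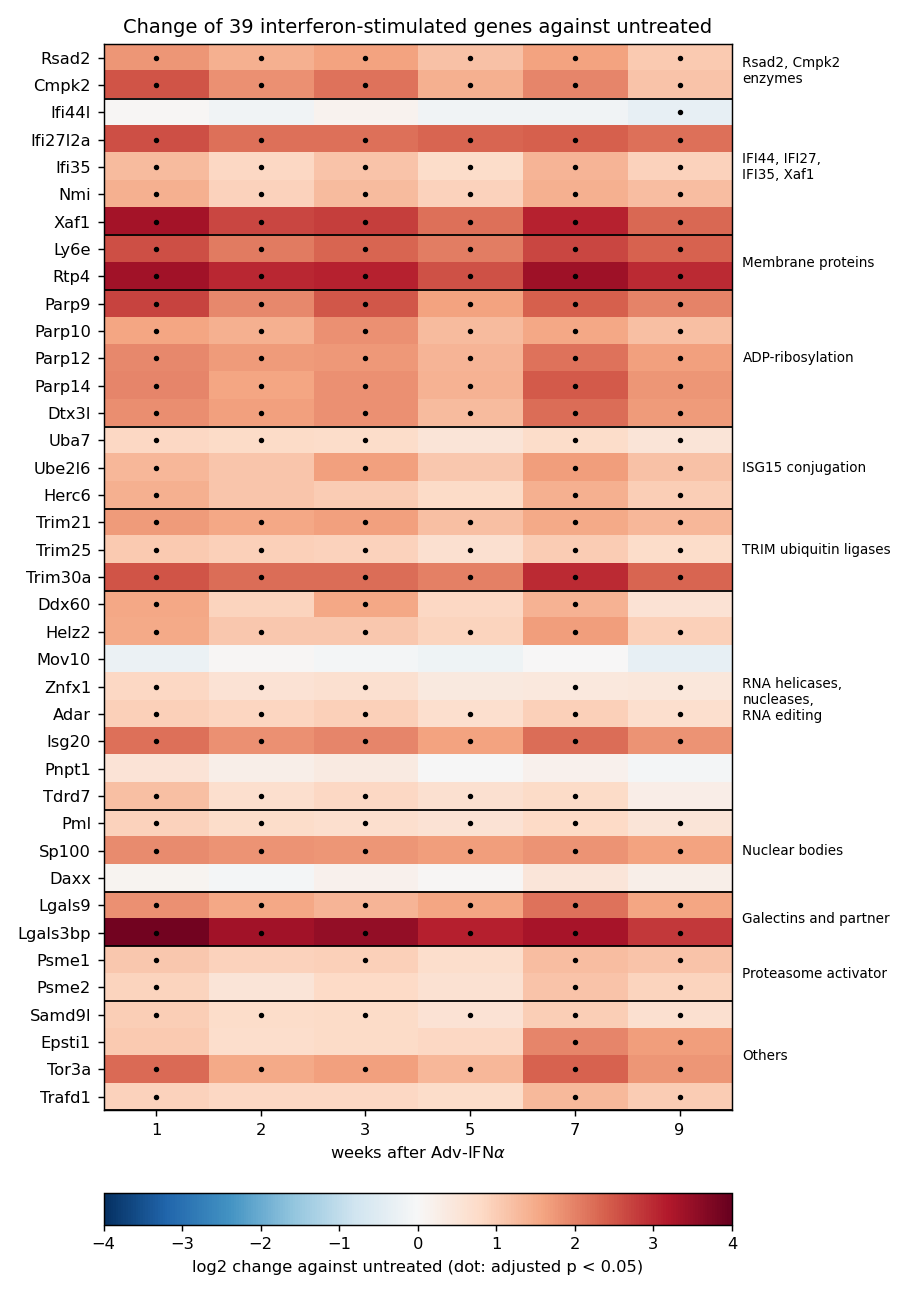
Log2 change against untreated of the 39 members (rows, by role) at weeks 1 to 9 (columns), coloured from -4 (blue) to 4 (red), with a dot where the adjusted p was below 0.05. Lgals3bp, Rtp4 and Xaf1 are the darkest red at week 1, and Ifi44l, Mov10, Pnpt1 and Daxx stay pale.

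Rsad2, or viperin, is a radical SAM enzyme that makes a chain-terminating nucleotide, and Cmpk2, its neighbour in the genome, is a mitochondrial nucleotide kinase. Both were higher than untreated at all 6 weeks. Rsad2 was already bright in untreated kidneys (9.22 ± 0.28, SD, n = 3) and reached 10.98 ± 0.16 at week 1 (n = 5), a change of 1.76 (SE 0.20, adjusted p = 3.79e-07). At weeks 5, 7 and 9 its change was 1.17, 1.61 and 1.05, and the difference of weeks 7 and 9 from week 1, -0.43 (SE 0.15, adjusted p = 0.0537), did not pass, although the test for any difference among the treated weeks did. Its dimmer probe sets were called lower in both contrasts with week 1. They lay below it by 0.80 and 1.06 at week 5 (adjusted p = 0.0403 and 0.00932), and by 0.64 and 1.02 in weeks 7 and 9 (adjusted p = 0.0077 and 0.000242).

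Cmpk2 had the clearest decay. It measured 4.14, 4.23 and 3.87 in the untreated kidneys and 6.29, 6.88, 6.73, 6.44 and 6.57 at week 1. Week 2 gave 5.72, 5.87, 6.19, 5.64 and 6.15, week 3 gave 6.14, 6.17, 6.46, 6.16 and 6.29 and week 5 gave 5.53, 5.50, 5.60, 5.84 and 5.00. All week 5 kidneys lay below all week 1 kidneys and still above all untreated ones. At week 7 it measured 7.11, 6.06, 5.58, 5.69 and 5.67, with replicate 1 above every week 1 kidney, and at week 9 5.42, 4.43, 5.02, 5.32 and 5.91. The change from untreated went from 2.50 at week 1 to 1.42 at week 5 and 1.14 at week 9. Week 5 was lower than week 1 by 1.09 (adjusted p = 0.00946), and weeks 7 and 9 were lower than week 1 by 0.96 (adjusted p = 0.000602). Both calls held under every alternative fit and with any 1 kidney of the weeks compared left out. The week 9 call against untreated was lost with the beta-actin covariate. A dimmer probe set of Cmpk2 differed from week 1 by -0.47 in weeks 7 and 9 (adjusted p = 0.0046). Its week 5 difference from week 1, -0.32, did not pass (adjusted p = 0.396). Against untreated that probe set was called at weeks 1, 3 and 7 only.

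Among the small IFI proteins and Xaf1, 4 of 5 measured members were higher at all 6 weeks. Xaf1, an antagonist of the apoptosis inhibitor XIAP, rose by 3.34 (SE 0.35, adjusted p = 5.43e-08) at week 1 and stood 2.20 above untreated at week 5 and 2.28 at week 9, and none of its contrasts between treated weeks passed although the test for any difference among them did. Ifi27l2a, a small mitochondrial protein, varied little, with changes of 2.56 at week 1, 2.34 at week 5 and 2.20 at week 9. For Ifi35 and its binding partner Nmi the week 1 changes were 1.28 and 1.41 and the week 9 changes 0.93 and 1.23. The call of Ifi35 was lost in 8 of 16 alternative settings at week 2 and in 10 at week 5.

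Ifi44l was the member with the smallest week 1 change, and was dim in all kidneys. It measured 2.58, 2.42 and 2.78 in untreated kidneys and 2.66, 2.47, 2.83, 2.44 and 2.85 at week 1, which overlapped. Week 2 gave 2.44, 2.33, 2.39, 2.41 and 2.63, week 3 gave 2.59, 2.66, 2.75, 2.86 and 2.73 and week 5 gave 2.40, 2.31, 2.51, 2.60 and 2.39. At week 7 the values were 2.47, 2.48, 2.56, 2.41 and 2.39 and at week 9 1.97, 2.38, 2.45, 2.18 and 2.26, with the lowest values of the course and 1 kidney inside the untreated range. The week 1 change was 0.06 (95% interval -0.18 to 0.29). The week 9 change of -0.34 (SE 0.12, adjusted p = 0.0439) was lost or left out under every other fit but the one with a replicate block, and also without untreated replicate 1 or 3, and without week 9 replicate 1, 4 or 5. At this brightness a probe set may miss a change in its RNA.

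Both measured membrane proteins were among the largest risers. Ly6e, a GPI-anchored protein that restricts entry of coronaviruses, was bright at rest and rose from 8.59 ± 0.12 (SD, n = 3) to 11.19 ± 0.15 at week 1 (n = 5), and its change was 2.69 at week 7 and 2.36 at week 9.

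Rtp4, a chaperone of G protein-coupled receptors that also dampens interferon responses, measured 4.85, 4.77 and 4.64 in untreated kidneys and 8.16, 8.33, 7.78, 8.15 and 8.17 at week 1. Week 2 gave 7.50, 7.87, 8.0, 7.36 and 8.16, week 3 gave 7.69, 7.83, 7.91, 7.89 and 7.87 and week 5 gave 7.46, 6.84, 7.22, 7.58 and 7.39. At week 7 the values were 8.81, 8.29, 7.79, 7.33 and 8.53 and at week 9 7.84, 6.52, 7.57, 8.25 and 8.48. All treated kidneys lay above all untreated ones at every week, and the week 7 and week 9 kidneys were spread far wider than those of week 3. The week 1 change was 3.36 (SE 0.28, adjusted p = 1.31e-09) and the week 9 change 2.98 (SE 0.28, adjusted p = 8.21e-08). Weeks 7 and 9 differed from week 1 by -0.18 (95% interval -0.61 to 0.26).

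The ADP-ribosylation genes were higher at every week in 5 of 5 cases, and held 1 of the 3 calls of decay and 3 of the 6 calls of a late rise. PARP9 and the ubiquitin ligase DTX3L form a complex and their genes are neighbours, and PARP10, PARP12 and PARP14 transfer single ADP-ribose units. Parp9 measured 5.74, 5.70 and 5.37 in untreated kidneys, 7.92, 8.41, 8.33, 8.52 and 8.34 at week 1 and 7.31, 7.42, 7.97, 7.16 and 7.77 at week 2. It measured 7.96, 7.76, 8.44, 8.10 and 8.17 at week 3 and 7.57, 6.57, 7.00, 7.39 and 7.58 at week 5, where every kidney lay below every week 1 kidney. At weeks 7 and 9 the values were 8.91, 8.48, 7.55, 7.14 and 7.92 and 7.35, 6.67, 7.39, 8.30 and 8.28, overlapping both week 1 and week 5. Week 5 was lower than week 1 by 1.08 (SE 0.27, adjusted p = 0.0485), a call lost in 11 of 18 alternative settings, 8 of which left out 1 kidney.

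Parp14 was at 7.79, 7.30 and 7.24 in untreated kidneys, 9.26, 9.47, 9.20, 9.36 and 9.72 at week 1 and 8.73, 9.17, 9.19, 8.73 and 9.34 at week 2. It was at 9.00, 9.09, 9.71, 9.20 and 9.39 at week 3 and 9.17, 8.55, 8.53, 8.97 and 8.93 at week 5. Week 7 gave 10.77, 10.18, 9.45, 9.03 and 10.04, and week 9 gave 9.32, 8.34, 9.08, 9.60 and 9.70. The highest 3 kidneys of the course were all of week 7, while week 9 replicate 2 was below all week 5 kidneys. The mean of weeks 7 and 9 was above week 5 by 0.72 (SE 0.20, adjusted p = 0.024), and differed from week 1 by 0.15 (95% interval -0.27 to 0.56). A dimmer probe set of Parp14 was called against untreated at weeks 3 and 7 only. Its difference of weeks 7 and 9 from week 5, 0.34, did not pass (adjusted p = 0.2455). Dtx3l and Parp12 were also higher in weeks 7 and 9 than in week 5, by 0.69 (SE 0.19, adjusted p = 0.0203) and 0.55 (SE 0.17, adjusted p = 0.0362). Parp10 rose by 1.57 at week 1 and 1.21 at week 9 with no call between treated weeks.

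Of the 3 enzymes that attach ISG15, 3 were called at week 1 and none at every week. Uba7, the activating enzyme, was called at 5 weeks with changes of 0.84 at week 1 and 0.52 at week 9, and its week 5 change of 0.52 did not pass. Ube2l6, the conjugating enzyme, was called at weeks 1, 3, 7 and 9 (1.32, 1.65, 1.68 and 1.16). Herc6, the ligase that takes this role in mice, was called at weeks 1, 7 and 9 (1.42, 1.43 and 0.97). No member of this group passed a comparison between treated weeks.

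All 3 TRIM ubiquitin ligases were higher at each week. Trim30a rose by 2.52 (SE 0.24, adjusted p = 1.4e-08) at week 1, stood at 2.01 at week 5 and 2.97 at week 7, and weeks 7 and 9 were above week 5 by 0.63 (SE 0.18, adjusted p = 0.0272). Trim21, an intracellular antibody receptor that is also the Ro52 autoantigen of lupus, went from 1.70 at week 1 to 1.33 at week 9. Trim25, a ligase of the RIG-I pathway, went from 1.06 to 0.73. Dimmer probe sets were called at fewer weeks, that of Trim30a at week 7 only and that of Trim21 at weeks 3 and 7 only. The dimmer one of Trim30a was above week 5 by 0.80 in weeks 7 and 9, which did not pass (adjusted p = 0.0589).

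The RNA helicases, nucleases and editing enzymes were the most mixed group, with 6 of 8 members higher at week 1 and 4 of 8 at week 9. Isg20, an exonuclease, rose most (2.21 at week 1 and 1.79 at week 9), and Adar, the A-to-I editing enzyme, rose by 0.94 and 0.66. A probe set of Adar of nearly the same brightness gave 1.82 and 1.44. Another, dimmer one gave 0.54 and 0.27 and was called at no week. Helz2, a helicase coactivator, rose by 1.51 at week 1 and 0.96 at week 9. Ddx60, a helicase of the RIG-I pathway, was called at weeks 1, 3 and 7 (1.56, 1.54 and 1.39), and its week 9 change was 0.57 (95% interval -0.21 to 1.36). Its probe set was dim, at 2.47 in untreated kidneys and 4.03 at week 1. The calls of Ddx60 were lost in 6 of 15 alternative settings at week 1, in 9 at week 3 and in 3 at week 7. Tdrd7, a Tudor-domain protein that restrains autophagy, decayed. Its level was 5.86 ± 0.48 in untreated kidneys (SD, n = 3), 7.06 ± 0.16 at week 1, 6.48 ± 0.27 at week 5 and 6.12 ± 0.27 at week 9 (n = 5 each). Weeks 7 and 9 lay below week 1 by 0.69 (adjusted p = 0.000299), in every alternative. The change from untreated at week 9, 0.26 (95% interval -0.09 to 0.62), did not pass.

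Znfx1, a sensor of double-stranded RNA, was lower in weeks 7 and 9 than in week 1 by 0.38 (adjusted p = 0.0181), a call lost only without week 1 replicate 4. Pnpt1, a mitochondrial exoribonuclease, changed by 0.56 (SE 0.15, adjusted p = 0.057) at week 1 and by -0.08 at week 9. Neither passed, but week 5 was below week 1 by 0.57 (adjusted p = 0.0276) and weeks 7 and 9 by 0.51 (adjusted p = 0.00186). The first of these calls was lost in 7 of 18 alternative settings and the second with the mean of its probe sets. A dimmer probe set of Pnpt1 was called at week 1 with 1.03 (adjusted p = 0.0137) and at week 7 with 1.06 (adjusted p = 0.00159), and its difference of weeks 7 and 9 from week 1, -0.25, did not pass (adjusted p = 0.392). Mov10, a helicase that acts with small RNAs, stayed within -0.32 to 0.04 of untreated at all weeks. A dimmer probe set of Mov10 changed by 0.10 to 0.49 and was called at no week either.

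Of the nuclear body proteins, Pml and Sp100 were higher at every week. The calls of Sp100 held in all alternatives, while those of Pml were lost in 8 of 16 settings at week 3, 11 at week 5 and 8 at week 9. Sp100 varied little, at 1.90 in week 1, 1.69 in week 5 and 1.60 in week 9, and weeks 7 and 9 differed from week 1 by -0.19 (95% interval -0.53 to 0.15). A dimmer probe set of Sp100 changed by only 0.20 at week 1 and 0.20 at week 9, and was called at week 7 only (0.43). Pml, the scaffold of these bodies, went from 0.93 to 0.50. Daxx, a histone chaperone of the bodies, was called at no week, and its largest change, at week 7, was 0.49 (95% interval 0.13 to 0.86).

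Lgals3bp, a secreted glycoprotein that binds galectin-3, rose more than any other member. It measured 6.56, 6.54 and 5.82 in untreated kidneys and 10.08, 10.33, 10.10, 10.02 and 10.30 at week 1. Week 2 gave 9.47, 9.75, 9.77, 9.51 and 9.88, week 3 gave 9.71, 9.85, 9.93, 9.81 and 9.85 and week 5 gave 9.60, 8.78, 9.12, 9.71 and 9.84. Week 7 gave 10.13, 9.79, 9.26, 9.08 and 9.78 and week 9 gave 8.70, 7.98, 9.41, 9.79 and 9.83. Every treated kidney was above every untreated one, while from week 2 on only week 7 replicate 1 reached the range of week 1. The change was 3.86 (SE 0.28, adjusted p = 8.98e-11) at week 1 and 2.84 (SE 0.28, adjusted p = 1.58e-07) at week 9, and weeks 7 and 9 were below week 1 by 0.79 (adjusted p = 0.00881) under every alternative. Lgals9, galectin-9, changed by 1.84 at week 1 and 1.59 at week 9, with no call between treated weeks.

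**Figure D2:**
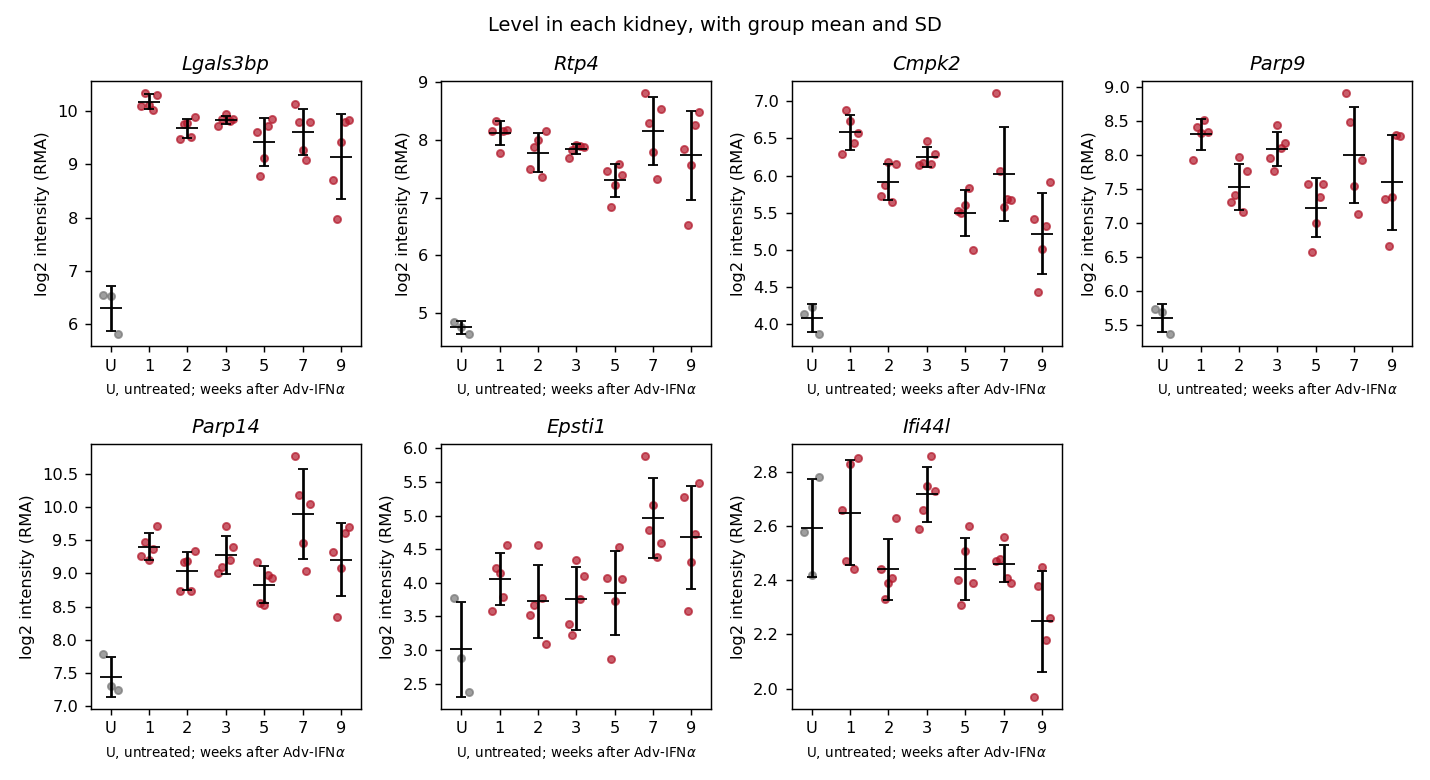
Log2 RMA intensity of 7 members in each kidney (points), with group mean and SD (black), for untreated kidneys (U, grey) and weeks 1 to 9 after Adv-IFNα (red). Lgals3bp, Rtp4, Cmpk2 and Parp9 lie above all untreated kidneys at every week, Epsti1 is highest at week 7, and Ifi44l stays below 3.

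The proteasome activator subunits PA28α and PA28β, which favour peptides for antigen presentation, are encoded by Psme1 and Psme2. Psme1 was called at weeks 1, 3, 7 and 9, with 1.07 at week 1 and 1.16 at week 9, and Psme2 at weeks 1, 7 and 9, with 0.89 and 0.90. Among the remaining members Samd9l, a translation inhibitor, was higher at each week (0.99 at week 1, 0.64 at week 9). Trafd1, a feedback inhibitor of innate signalling, was called at weeks 1, 7 and 9 (0.92, 1.30 and 1.03). Tor3a, an ATPase of the endoplasmic reticulum, went from 2.25 at week 1 to 1.34 at week 5 and 2.36 at week 7, and weeks 7 and 9 lay above week 5 by 0.72 (SE 0.22, adjusted p = 0.0362). Some calls against untreated in this paragraph were unstable over 16 alternative settings. That of Samd9l at week 5 was lost in 9, that of Psme1 at week 3 in 9, and those of Psme2 and Trafd1 at week 1 in 8 each.

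Epsti1, a gene first found in epithelial cells grown with stromal cells, was the member called only at weeks 7 and 9. It measured 3.77, 2.88 and 2.38 in untreated kidneys, 3.58, 4.22, 4.14, 3.79 and 4.57 at week 1 and 3.52, 3.67, 4.57, 3.78 and 3.09 at week 2. It measured 3.39, 3.23, 4.34, 3.76 and 4.10 at week 3 and 4.07, 2.86, 3.73, 4.53 and 4.06 at week 5. Week 7 gave 5.89, 4.78, 5.16, 4.39 and 4.59, all above untreated, and week 9 gave 5.28, 3.58, 4.31, 4.72 and 5.49, with replicate 2 inside the untreated range. The week 1 change, 1.05 (SE 0.39, adjusted p = 0.192), did not pass, while the week 7 change was 1.95 (SE 0.39, adjusted p = 0.000649). Weeks 7 and 9 were above week 5 by 0.97 (SE 0.29, adjusted p = 0.0347) and above week 1 by 0.76 (SE 0.29, adjusted p = 0.0762), of which the second did not pass. The week 9 call against untreated was lost once the beta-actin ratio entered the fit. This probe set was dim, with every group mean below 5. A still dimmer one of Epsti1 changed by 0.11 at week 7 and -0.01 at week 9, and was called at no week.

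Which members decayed or rose again was tested by contrasts of treated weeks, which the untreated kidneys enter only through the shared variance estimate. Persistence was read from the calls against untreated, so it rests on the 3 untreated kidneys. From week 1 to week 5, 3 members were lower (Parp9, Cmpk2 and Pnpt1; background 0.24%) and 0 higher (background 0.737%), while 27 were lower at an unadjusted p below 0.05 and 0 higher (backgrounds 4.02% and 6.91%). From week 5 to weeks 7 and 9, 6 were higher (Parp12, Parp14, Dtx3l, Tor3a, Epsti1 and Trim30a; background 4.41%) and 0 lower (background 5.76%), with 17 and 0 at an unadjusted p below 0.05 (backgrounds 11.6% and 11.8%). Between week 1 and weeks 7 and 9, 6 were lower (Ifi44l, Cmpk2, Lgals3bp, Tdrd7, Pnpt1 and Znfx1; background 8.64%) and 0 higher (background 11.1%), with 11 and 1 at an unadjusted p below 0.05 (backgrounds 14.6% and 17.3%). Week 9 against week 7, a contrast added after the values were seen, gave 0 members higher and 0 lower by limma (backgrounds 0.0117% and 0.0585%), with 0 and 18 at an unadjusted p below 0.05 (backgrounds 2.59% and 10.2%). No member was called both lower at week 5 and higher afterwards. Any difference among the 6 treated weeks was called for 16 members, against 19.9% of all genes.

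As shares of the 39 members, 7.69% were lower at week 5 than at week 1, 15.4% were higher in weeks 7 and 9 than in week 5, 15.4% were lower in weeks 7 and 9 than in week 1, and 41% varied among the treated weeks, each above its background share. The interval of the difference between weeks 7 and 9 and week 1 lay within 2-fold either way for 34 of 39 members, the exceptions being Xaf1, Cmpk2, Ddx60, Lgals3bp and Epsti1. Of the 25 members raised at every week, 13 passed neither a contrast between treated weeks nor the test for any difference among them. They were Ifi27l2a, Parp10, Rtp4, Lgals9, Isg20, Sp100, Pml, Samd9l, Nmi, Adar, Trim21, Trim25 and Ly6e. The number of members called higher after week 5 depended on single kidneys and on the fit. It was 0 with only weeks 5, 7 and 9 in the fit and 0 without week 5 replicate 3. It was 1 without week 5 replicate 2, 2 without week 5 replicate 5, week 9 replicate 4 or replicate 5 of the same week, and 3 without week 7 replicate 1. It was 16 without week 7 replicate 4, 13 without week 9 replicate 2 and 11 with array weights. The fall from week 1 to week 5 gave 1 call without week 1 replicate 3, 4 or 5 or week 5 replicate 1, 3 or 4, and 11 with only those groups in the fit. The count for any difference was 10 without week 5 replicate 3 or week 7 replicate 1, 2 or 5.

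**Figure D3:**
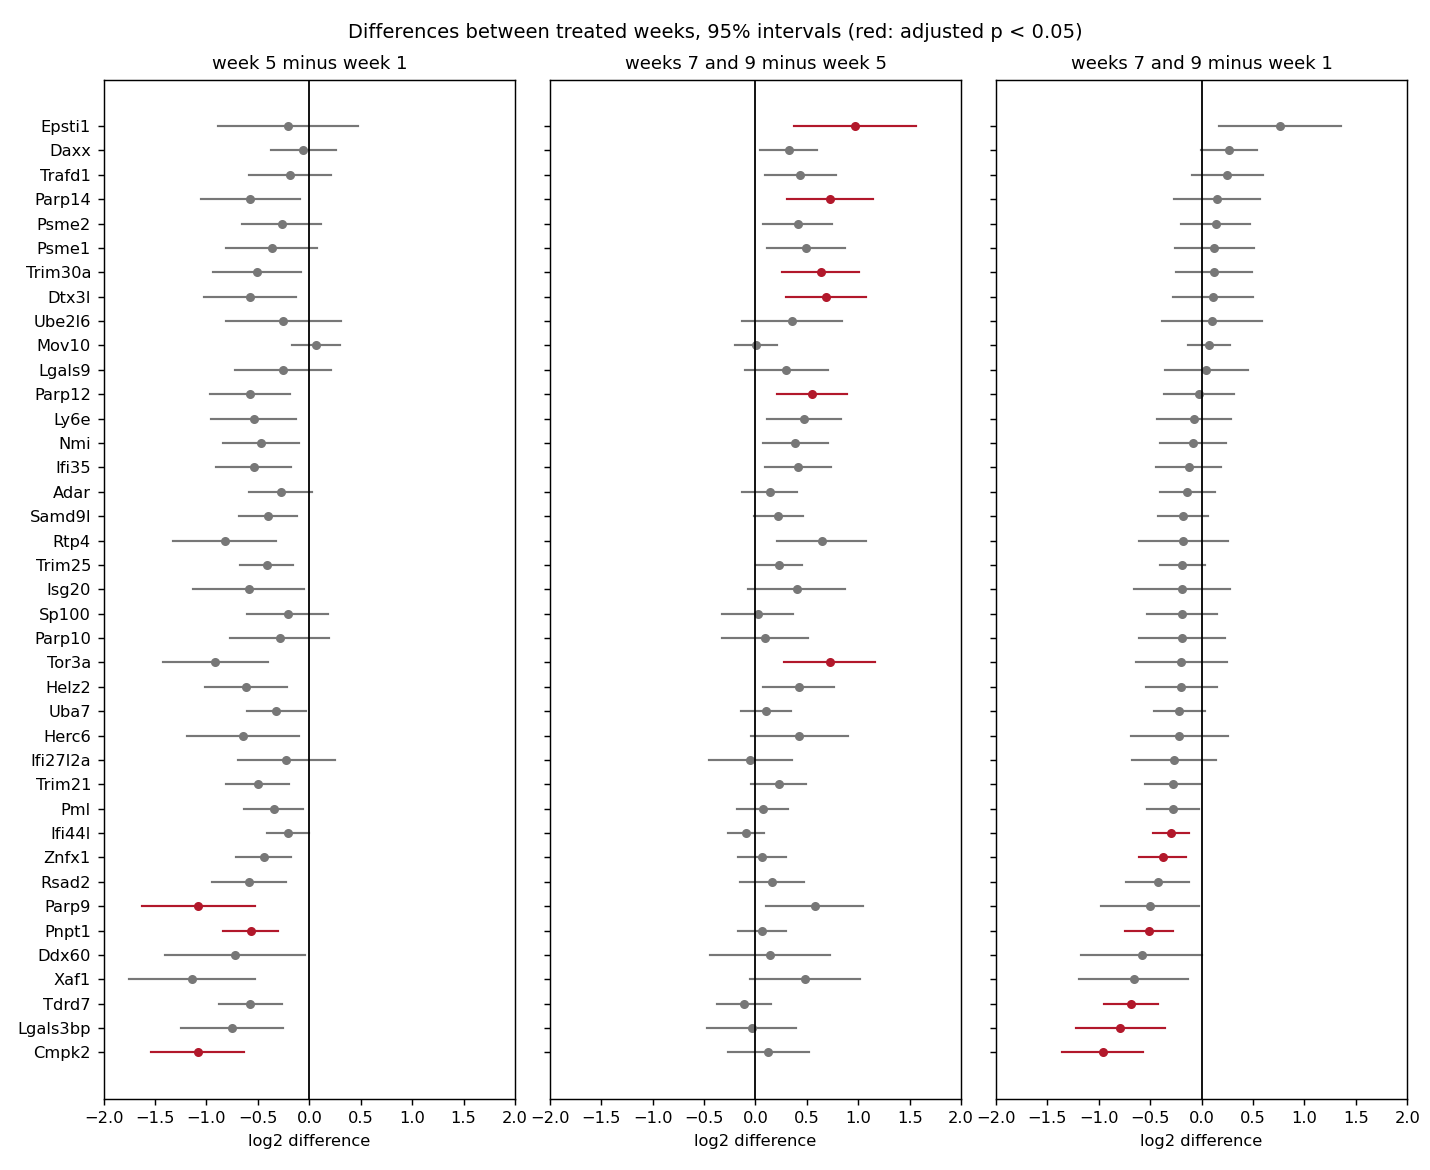
Log2 difference between treated weeks for the 39 members, with 95% intervals, in 3 contrasts, ordered by the difference of weeks 7 and 9 from week 1 (red where the adjusted p was below 0.05). Most points lie left of 0 from week 1 to week 5 and right of 0 from week 5 to weeks 7 and 9, and the late values straddle those of week 1, from Cmpk2 at -0.96 to Epsti1 at 0.76.

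The late kidneys spanned a wider range than those of week 1. The members' median change from the untreated mean was 1.24 to 1.68 over the week 1 kidneys, 0.80 to 1.29 over those of week 5, 0.98 to 2.36 at week 7 and 0.57 to 1.64 at week 9. Week 7 replicate 4 and week 9 replicate 2 had the lowest median of their weeks. The tubular injury genes Lcn2 and Havcr1 averaged 5.92 and 6.64 in those kidneys, above the 5.21 to 5.85 of untreated kidneys, and 7.16 to 10.26 in the other 8 late kidneys. Their proximal tubule level, over 6 of 8 listed markers, was 9.87 and 9.89, against 9.79 to 9.95 in untreated kidneys and 8.56 to 9.82 in the other late kidneys. In whole tissue, fewer cells of a type and less RNA per cell cannot be told apart, and the part of tubular injury in the late values was not tested.

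Most leukocyte markers that were called rose later than the members. Their mean level, over 16 of 18 listed markers, was 3.57 to 3.73 in untreated kidneys and 3.58 to 3.81 at week 1, when the members had already risen. It was 4.03 to 4.61 at week 5, when the members' median was lowest, 4.06 to 4.58 at week 7 and 4.37 to 4.96 at week 9. Of the 16, 1 was called higher at week 1 (Adgre1, a macrophage marker, by 1.28) and 1 lower (S100a8, of neutrophils, -0.78). Called higher were 0 at week 2, 1 at week 3, 5 at week 5, 6 at week 7 and 7 at week 9, where S100a8 was again called lower (-0.56). The pan-leukocyte gene Ptprc changed by 0.36 at week 1 (95% interval -0.14 to 0.85), 1.91 at week 5 and 2.30 at week 9. Their part in the members' late levels was not tested. The erythroid level, over Hba-a1 and Alas2, was 4.60 to 5.13 at week 1, below the 5.66 to 6.38 of untreated kidneys and the 6.10 to 7.50 of week 5, and 3.92 to 7.63 over weeks 7 and 9. Hba-a1, a globin, was higher at week 5 than at week 1 by 3.08 (SE 0.54, adjusted p = 0.00187) and higher in weeks 7 and 9 than at week 1 by 2.13 (SE 0.47, adjusted p = 0.00141). Against untreated, Alas2 was called at week 9 (1.21) and Hba-a1 at no week. The part of blood in the contrasts with week 1 was not tested.

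**Figure D4:**
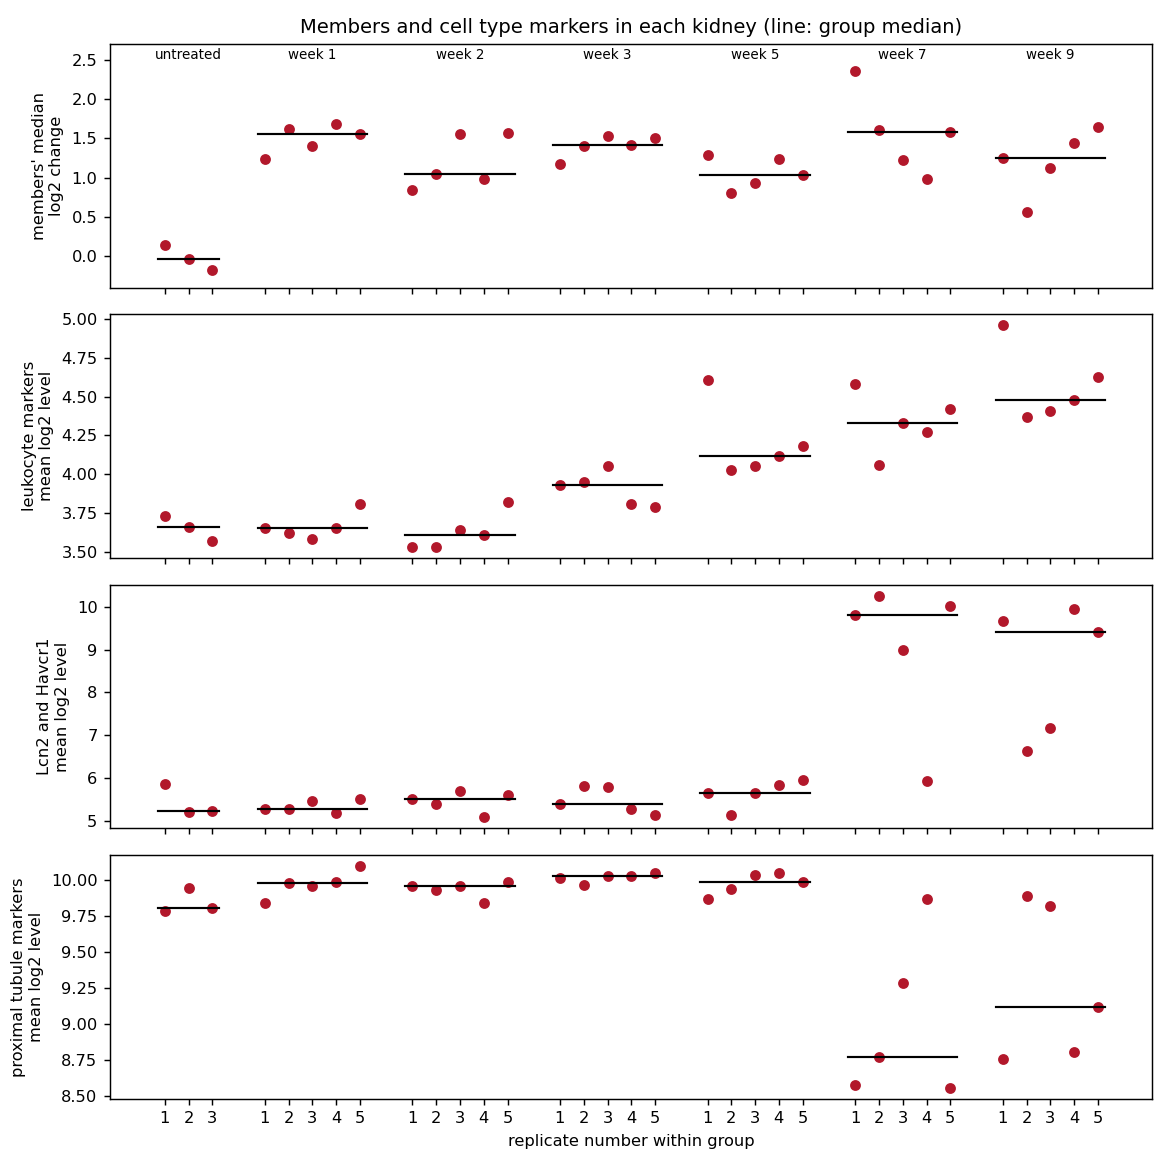
For each kidney, by group and replicate number, the members' median log2 change from the untreated mean (top), and the mean log2 level of leukocyte markers, of Lcn2 and Havcr1, and of proximal tubule markers (lower panels), with group medians as lines. The members are up from week 1, the leukocyte level climbs from week 3 on, and among the late kidneys week 7 replicate 4 and week 9 replicate 2 have the lowest Lcn2 and Havcr1 and the highest proximal tubule level.

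The rest of the pathway was set beside the module with lists of other genes. Of 11 interferons and receptors, 0 were higher than untreated through week 5, and 4 were at week 7 (Ifna4, Ifngr1, Ifngr2 and Ifnlr1) and 4 at week 9 (Ifna4, Ifngr1, Ifngr2 and Il10rb). Of all genes, 1.4% were called higher at week 1, 13.2% at week 7 and 9.05% at week 9. Ifna4 (1.73 in untreated kidneys, 2.27 at week 7) and Ifnlr1 (2.97 and 3.75) lay below the array medians of 3.97 to 4.09, so their calls are less certain. Ifngr1, a chain of the IFN-γ receptor, changed by -0.03 at week 1 and 0.88 at week 7. Of 11 signal transducers, 3 were higher at week 1, namely Stat2 (2.53), Irf9 (1.70) and Irf7 (4.36), and Irf8 was also called at weeks 5, 7 and 9 (0.86, 1.12 and 1.19). Irf7 was lower at week 5 than at week 1 by 1.84. Of 6 feedback genes 1 was higher at week 1, Usp18, the protease that removes ISG15, by 3.86, and it was lower at week 5 than at week 1 by 1.41. Isg15 is not analysed here.

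Of 9 effectors of the IFIT, MX and OAS families, 9 were higher at week 1 and 8 at week 9, from 1.85 (Mx2) to 5.00 (Ifit1) at week 1. Ifit1, Ifit3, Mx2 and Oasl1 were lower at week 5 than at week 1, by 1.22 to 1.77, and the same 4 genes were lower in weeks 7 and 9 than in week 1. Of 7 genes that lean to IFN-γ, 3 were higher at week 1 (Irgm1, Iigp1 and Cd274, at 3.22, 2.49 and 2.10) and 5 at weeks 7 and 9. Cxcl10 was also called from week 3 on (1.77 at week 3), and Gbp2 at weeks 7 and 9. Gbp2, a guanylate-binding protein, changed by 1.30 at week 1, which did not pass, and by 2.35 at week 7.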

How the data were processed

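Whole kidney RNA was amplified and labelled by the authors (NuGEN Ovation) and hybridised to Affymetrix HT MG-430 PM arrays. The authors deposited log2 intensities after RMA (background correction, quantile normalization and summary per probe set), made with Partek per the labels, with versions not given in the sources used here. The base of the logarithm was read from the range of the values. Of 45141 rows, 104 control probe sets were left out. Of the rest, 28898 had 1 gene symbol, 551 several and 15588 none here. Of the members, 22 had 1 probe set and 17 several.

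Groups came from the labels. limma 3.58.1 (R 4.3.3) fitted 7 group means to all 33 arrays (26 residual degrees of freedom), with Benjamini-Hochberg adjustment over 45037 probe sets. Shares of all genes count 17097 named genes, 1 probe set each. The labels give each array as a separate kidney and nothing on cages or days, so p-values measure the spread between these kidneys. Members were all named, and values for each kidney are given for those with the largest early rise, the largest called differences between treated weeks in each direction and the smallest week 1 change. Members, lists and tests were chosen with earlier results of these data known. Week 9 minus week 7 was added after values were seen. Alternatives were the samples in the fit, array weights, the variance prior, quantile normalization, a dim filter at 5, the mean of probe sets, the beta-actin ratio, a replicate block and leaving out each array. The fit was tested on simulated data. The number of arrays limits the precision.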

Additional observations from a re-analysis of the deposited data

Results flagged for a closer look

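The 15 differences of members between treated weeks that passed limma's test are listed here because the response differed between time points. From week 1 to week 5 the log2 differences were -1.08 for Parp9, -1.09 for Cmpk2 and -0.57 for Pnpt1. From week 5 to weeks 7 and 9 they were 0.55 for Parp12, 0.72 for Parp14, 0.69 for Dtx3l, 0.72 for Tor3a, 0.97 for Epsti1 and 0.63 for Trim30a. From week 1 to weeks 7 and 9 they were -0.29 for Ifi44l, -0.96 for Cmpk2, -0.79 for Lgals3bp, -0.69 for Tdrd7, -0.51 for Pnpt1 and -0.38 for Znfx1. Cmpk2 in both contrasts, Lgals3bp and Tdrd7 kept their call under each alternative and with each kidney of the weeks compared left out. Parp14 and Dtx3l lost theirs in 3 of 23 settings, Parp12, Tor3a and Epsti1 in 10 of 23, 23 and 22, Trim30a in 7 of 23 and Ifi44l in 4 of 22. In the 7 members shown kidney by kidney, none of 42 groups of 5 held a value set apart by Dixon's test.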

How the results depend on the processing

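The direction of called changes was stable. Changes called in the reported fit gave 3326 values under the alternatives, called there or not, and 0 had the opposite sign. The alternatives reuse the same arrays, so a called change could hardly turn. Changes not called in the reported fit were not checked for sign. The counts higher than untreated stayed within 1.5 times at all weeks and under all alternatives but 1, week 9 with beta-actin as covariate (21). The single member lower at week 9 became 0 with only those groups in the fit, with array weights, with a trended robust prior, with quantile normalization, without dim probe sets, with the mean of probe sets and with the beta-actin covariate. Lower at week 5 than week 1 were 11 members with only those groups in the fit, 7 with array weights and 5 without dim probe sets. Higher in weeks 7 and 9 than week 5 were 0 with only those groups and 11 with array weights, and higher than week 1 was 1 with array weights. With 1 kidney left out, the number higher than untreated ran from 30 to 33 at week 1, 24 to 28 at week 2, 28 to 32 at week 3, 19 to 24 at week 5, 33 to 36 at week 7 and 29 to 33 at week 9, and the number lower at week 9 from 0 to 2. The number lower at week 5 than at week 1 ran from 1 to 4, the number higher in weeks 7 and 9 than in week 5 from 0 to 16, and the numbers lower and higher in weeks 7 and 9 than in week 1 from 5 to 8 and 0 to 1. Any difference among treated weeks was called for 10 to 23. The cause of these shifts was not tested.

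Same-numbered kidneys did not deviate together (median correlation -0.006 over 93 pairs, against 0.001 over 372 other pairs), so the numbers were not taken to pair them. With a replicate block, 2 members were lower at week 5 than at week 1, 6 were higher in weeks 7 and 9 than in week 5, 6 were lower than in week 1, and 15 passed for any difference. A filter on dim probe sets kept 18381 of 45037, and 35 of 39 members, so the dimmest ones, Ifi44l among them, are the least certain.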
